A study of Mus musculus with 35 samples.

Results

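Expression of 9 genes of the Schwann cell and myelin program was described in mouse enteric glia. The genes were chosen by symbol from a table of 22180 genes in 35 libraries. No measured value was used as a filter, but earlier results of these data were known. They were Mbp, Pmp22 and Mag of the myelin sheath, Gldn, L1cam and Ncam1 of cell and axon adhesion, the secreted ligand Lgi4, the transcription factor Egr2 and the small heat shock protein Cryab. All 9 were found in the table. There were 7 groups of 5 biological replicates. The 6 culture groups came from wildtype mice on a BL6 background, 8 to 16 weeks old, whose small intestinal muscularis gave neurospheres that proliferated for 7 days and then differentiated for 3 days, as the labels give it, on Matrigel, laminin or poly-L-ornithine. Matrigel is extracted from a tumour's basement membrane and holds several of its proteins, laminin is 1 of those proteins in pure form, and poly-L-ornithine is a charged synthetic chain that holds none of them. On each coating, cells were left naive or received IL-1β, an inflammatory cytokine, at 10 ng/ml for 24 hours. The 7th group, RiboTag, was messenger RNA bound to HA-tagged ribosomes, pulled down from the naive muscularis externa of tamoxifen-treated Sox10iCreERT2Rpl22HA/+ mice, in which the tag is switched on only in cells that use the Sox10 driver. Cultures gave total RNA and may also hold smooth muscle cells, fibroblast-like cells and neurons, whereas the pull-down holds whatever RNA the beads retained.

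Schwann cells are the glia of peripheral nerves. Those that myelinate wrap an axon and compact their membrane under the control of SOX10 and EGR2, while others ensheath small axons without myelin and keep adhesion molecules such as L1CAM and NCAM1. Enteric glia share the neural crest origin and SOX10 with Schwann cells and carry some of the same genes, but they do not form compact myelin in the gut wall. Several of the genes are also used by other cells of the muscularis. Neurons make L1cam and Ncam1, muscle makes Cryab, and fibroblasts make Pmp22.

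On mm10 (RefSeq positions on GRCm38.p6), Mag lies at chr7:30899175-30914922 and Lgi4 at chr7:31058909-31070935, 144 kb apart on chromosome 7. Chromosome 9 holds Ncam1 at chr9:49502129-49799393, Cryab at chr9:50745951-50756636, 947 kb from it, and Gldn at chr9:54286486-54341777, 3530 kb from Cryab. Egr2 lies at chr10:67534469-67542188, Pmp22 at chr11:63128982-63159547 and L1cam at chrX:73853778-73880838. The position of Mbp is given with its values.

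Promoter windows from RefSeq on GRCm38.p6 matched 5 of the genes, with 15 windows of 300 bases each, from 250 bases before a transcript start to 50 after it. A single window each of Pmp22, Gldn and L1cam is shown, because these genes were lower together after IL-1β. Cryab, Lgi4 and Ncam1 are named only. The letters searched on both strands were the SOX core ACAAAG, the other SOX core AACAAT, the EGR core GCGGGGGCG, the TATA box TATAAA, and a kappa B core of GGG, any 4 bases and TCC. None contains another. Capitals mark a match, and the sequences run 5′ to 3′ on the gene's strand.
Pmp22, chr11:63128732-63129031, plus strand: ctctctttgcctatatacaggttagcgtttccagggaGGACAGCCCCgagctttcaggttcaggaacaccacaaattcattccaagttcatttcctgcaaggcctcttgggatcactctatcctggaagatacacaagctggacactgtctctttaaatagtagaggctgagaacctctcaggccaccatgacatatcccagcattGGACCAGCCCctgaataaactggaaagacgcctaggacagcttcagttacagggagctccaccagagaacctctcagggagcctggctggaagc
Gldn, chr9:54286236-54286535, plus strand: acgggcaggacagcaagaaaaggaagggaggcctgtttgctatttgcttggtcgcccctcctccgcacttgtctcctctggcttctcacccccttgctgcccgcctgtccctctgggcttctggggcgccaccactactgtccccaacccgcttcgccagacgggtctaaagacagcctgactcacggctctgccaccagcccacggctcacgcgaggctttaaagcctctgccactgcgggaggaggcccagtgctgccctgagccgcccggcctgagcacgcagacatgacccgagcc
L1cam, chrX:73880785-73881084, minus strand: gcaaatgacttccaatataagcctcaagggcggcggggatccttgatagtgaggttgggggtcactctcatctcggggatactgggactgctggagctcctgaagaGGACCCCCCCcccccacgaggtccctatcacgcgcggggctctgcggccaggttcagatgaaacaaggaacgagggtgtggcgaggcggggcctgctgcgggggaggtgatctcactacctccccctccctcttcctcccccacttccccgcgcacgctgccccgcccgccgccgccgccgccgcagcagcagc
The Pmp22 window shown held 2 kappa B cores, both on the minus strand, the L1cam window held 1, and the Gldn window held none of the letters searched. Windows at other Pmp22 transcript starts, not shown, also held kappa B cores, some of them on the plus strand. A kappa B core of this kind is found in 19.2% of 32851 promoter windows of the same length, so that a match is common. The SOX core ACAAAG is found in 18.7% of windows, AACAAT in 10.7%, the EGR core in 2.91% and the TATA box in 13.6%. In the windows of Mag, a SOX core began 67 bases before the RefSeq gene start. A window of Egr2, which was not called after IL-1β, also held a kappa B core, 116 bases before its transcript start. G and C made up 50.7% of the Pmp22 window, 65.0% of the Gldn window and 67.0% of the L1cam window. A match describes letters only and is no evidence of binding.

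Values are normalized counts, that is reads at the 3′ end of transcripts per gene after each library was divided by the authors' size factor. Library totals ran from 7522181 to 9185843 normalized counts. Depth, estimated from the step between low values, was 6865512 to 11668995 reads per library, with a median of 8900391. With the values of the fewest reads set aside, the commonest low value stood at 6 to 24 reads, so that a low value may rest on few molecules. Differences were tested with limma on log2(normalized count + 2), with Benjamini-Hochberg adjustment across every gene in the fit. A gene was called where its adjusted p was under 0.05. These fits took the libraries as unpaired. Libraries also carry serial numbers in their labels, here ranked within each group (the serial rank). All 30 culture libraries varied most like those of their own serial rank, but no source used here ties the rank to a preparation. SEs and adjusted p-values are from the unpaired fits unless a block is named. Fold changes on this scale understate changes of genes with few counts. The summed level of 11 enteric glial markers was 13360 to 31860 in naive cultures, 10645 to 23954 after IL-1β and 32521 to 46171 in RiboTag. That of 8 markers of myelinating Schwann cells was 43.9 to 231, 0 to 87.3 and 346 to 434. Enteric glial markers were thus present in all groups, and the cultures held little of the defining Schwann cell markers. Markers of other cells were present as well. In naive cultures 8 fibroblast markers summed to 24570 to 89853, and in RiboTag 9 smooth muscle markers summed to 242803 to 494576.

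**Figure D1:**
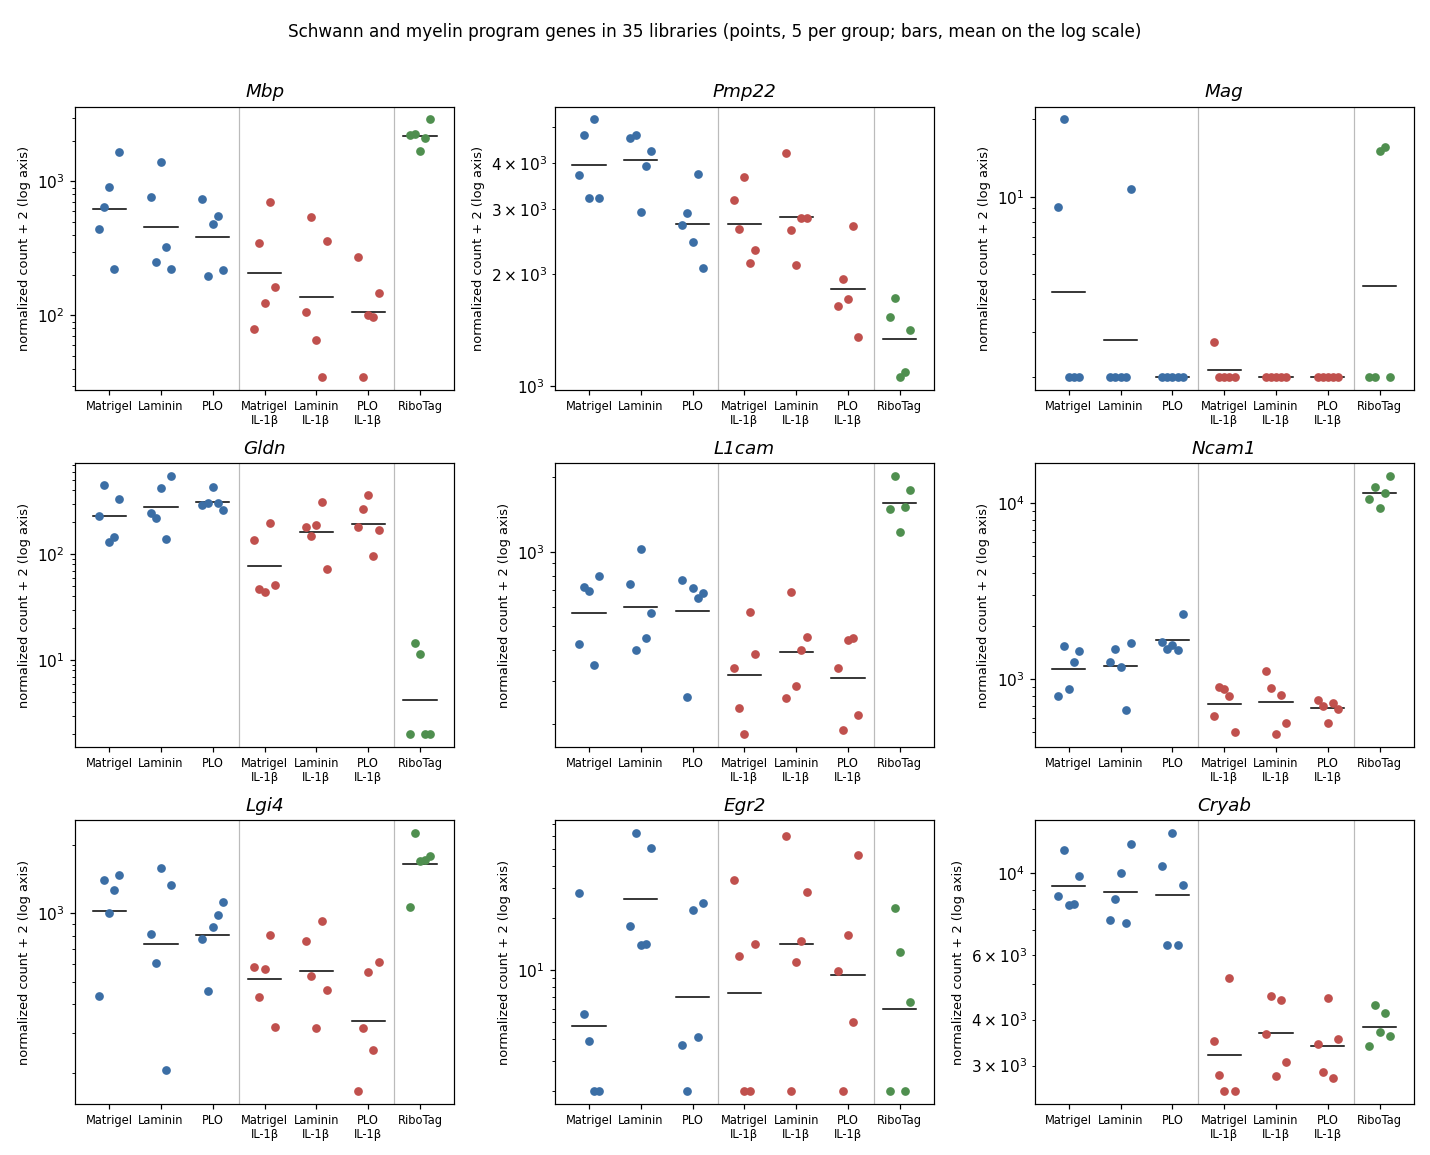
Normalized count + 2 on a log axis for each of the 9 genes in all 35 libraries, with naive cultures in blue, IL-1β-treated cultures in red and RiboTag in green. Points are libraries, bars are means on the log scale of 5 libraries, and PLO stands for poly-L-ornithine. All 15 Cryab values after IL-1β lie below all 15 naive values, Gldn is near 0 in RiboTag and Mag is at 0 in most libraries.

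IL-1β was followed by lower levels of 7 of the 9 genes when the 3 coatings were averaged. Cryab, Mbp, Gldn, Lgi4, Ncam1, L1cam and Pmp22 fell, and Mag and Egr2 were not called. Over all 20687 genes tested, 7.44% were called in this comparison and 4.02% were called lower. The median log2 fold change of the 9 genes was -0.88, beside -0.04 over all genes. The bulk libraries cannot tell fewer cells of a type from less RNA per cell.

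Mbp, which encodes the cytoplasmic protein that holds compact myelin membranes together, showed the largest fitted change of the 9 and a wide spread. On Matrigel its normalized count was 439, 639, 905, 220 and 1656 in the naive state, against 77.4, 343, 121, 703 and 161 once treated. On laminin it was 759, 247, 1402, 325 and 221, against 103, 541, 64.2, 32.7 and 358. On poly-L-ornithine it was 734, 194, 478, 549 and 218, against 271, 32.6, 99.3, 94.7 and 146. The groups overlapped on every coating, and 10 of the 15 treated libraries lay below all 15 naive ones. Matched by serial rank, each treated library lay below the naive library of its rank on every coating. On Matrigel these pairs were 905 and 343, 439 and 161, 1656 and 703, 220 and 121, and 639 and 77.4. Over the coatings the mean was 599 ± 442 (SD, n = 15) naive and 210 ± 198 (SD, n = 15) after IL-1β, and Mbp fell by 1.73 on the log2 scale (SE 0.44, adjusted p = 0.0121). The gene lies at chr18:82475091-82585637. It also gives golli transcripts, and the values per gene do not separate them.

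Pmp22, a compact myelin membrane protein whose dosage underlies an inherited human neuropathy, fell less but evenly. Its normalized count on Matrigel was 3706, 4743, 3221, 5239 and 3204 naive and 3172, 2657, 3673, 2145 and 2318 after IL-1β. On laminin it was 4656, 4748, 2951, 3927 and 4314, against 4263, 2634, 2121, 2841 and 2846. On poly-L-ornithine it was 2724, 2927, 2443, 3722 and 2072, against 1637, 1945, 1712, 2692 and 1356. In each coating 4 of 5 treated libraries were below all naive libraries of that coating. Pmp22 fell by 0.54 on the log2 scale (SE 0.11, adjusted p = 0.0007), from a mean of 3640 ± 951 to 2534 ± 780 (SD, n = 15 each).

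Mag, the adhesion protein of the inner myelin membrane that faces the axon, was hardly detected. It was at 0 in 26 of 30 culture libraries, and the others read 7.11 and 17.9 on naive Matrigel, 8.66 on naive laminin and 0.745 on Matrigel with IL-1β. No fold change is given, and its adjusted p was 0.437.

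Among the adhesion genes, Gldn encodes gliomedin, which Schwann cells release at nodes of Ranvier to gather neurofascin and sodium channels. Its normalized count on Matrigel was 228, 447, 127, 141 and 331 naive and 134, 45.0, 42.1, 193 and 49.5 with IL-1β. On laminin it was 243, 216, 423, 135 and 539, against 179, 145, 184, 308 and 69.6. On poly-L-ornithine it was 290, 300, 431, 299 and 259, against 177, 262, 360, 93.7 and 166. Naive and treated libraries overlapped on each coating, and 3 of 5 treated Matrigel libraries lay below all naive Matrigel libraries. By serial rank, the treated library was lower except in the laminin pair of 135 and 184. Gldn fell by 1.01 on the log2 scale over the coatings (SE 0.24, adjusted p = 0.00287).

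L1cam, an adhesion molecule of axons and of Schwann cells that do not myelinate, changed in the same direction on each coating. On Matrigel it read 420, 717, 689, 347 and 792 naive and 337, 231, 180, 569 and 382 treated. On laminin the values were 740, 399, 1021, 445 and 561, against 254, 688, 285, 397 and 451. On poly-L-ornithine they were 763, 255, 712, 650 and 676, against 337, 187, 437, 445 and 217. The naive poly-L-ornithine library at 255 lay among the treated ones, and the groups overlapped on each coating. By serial rank, each treated library lay below the naive one of its coating, with 187 beside that 255. Its mean went from 612 ± 204 to 360 ± 144 (SD, n = 15 each), and L1cam fell by 0.78 on the log2 scale (SE 0.19, adjusted p = 0.00453).

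Ncam1, a homophilic adhesion molecule of glia and neurons, was the adhesion gene with the smallest adjusted p. On Matrigel it read 794, 1526, 878, 1250 and 1438 naive and 613, 892, 877, 797 and 494 treated. On laminin it read 1247, 1484, 1169, 660 and 1603, against 1101, 882, 483, 811 and 556. On poly-L-ornithine it read 1616, 1483, 1545, 1454 and 2320, against 761, 694, 562, 726 and 671. The poly-L-ornithine groups did not overlap, whereas those on Matrigel and laminin did. By serial rank, the treated library was lower except in the Matrigel pair of 878 and 892. Ncam1 fell by 0.88 on the log2 scale (SE 0.13, adjusted p = 3.85e-07), from a mean of 1364 ± 402 to 728 ± 172 (SD, n = 15 each).

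Lgi4 encodes a secreted ligand that Schwann cells make and that acts through ADAM22 on axons to allow myelination. It read 433, 1397, 999, 1264 and 1477 on naive Matrigel and 582, 429, 569, 798 and 315 after IL-1β. On laminin it read 807, 604, 1578, 203 and 1332, against 757, 529, 312, 921 and 460. On poly-L-ornithine it read 772, 455, 874, 981 and 1119, against 164, 314, 550, 249 and 609. Groups overlapped on each coating, and only 1 treated library lay below all 15 naive ones. By serial rank, the treated library was lower except in the laminin pairs of 604 and 757 and of 203 and 312. Lgi4 fell by 0.88 on the log2 scale (SE 0.27, adjusted p = 0.0479), close to the threshold. Leaving out any of 22 of the 30 libraries ended the call, with an adjusted p of up to 0.0847.

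Egr2, also called Krox20, the factor that switches on myelin genes in Schwann cells, stayed low. Its normalized count was 0 to 59.8 in naive cultures and 0 to 57.5 after IL-1β. It was at 0 in 3 of 15 naive and 4 of 15 treated libraries, the groups overlapped fully, and the adjusted p was 0.967. At this level no change in Egr2 was detectable.

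Cryab, the small heat shock protein αB-crystallin, which is found in muscle and in glia of nerve and brain, separated the treatments on every coating. On Matrigel it read 8680, 11574, 8218, 8254 and 9852 naive and 3496, 2829, 2554, 5195 and 2561 after IL-1β. On laminin it read 7462, 8516, 10008, 7324 and 11978, against 3658, 4625, 2814, 4527 and 3070. On poly-L-ornithine it read 10488, 6368, 12841, 6393 and 9271, against 3428, 2873, 4571, 2774 and 3550. The highest treated value, 5195, was below the lowest naive value, 6368. Cryab fell by 1.39 on the log2 scale (SE 0.12, adjusted p = 5.34e-09), from a mean of 9149 ± 1970 to 3502 ± 853 (SD, n = 15 each), which is 2.61-fold lower by the means.

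Reference genes of the lineage did not all pass the test. S100b went from 2118 ± 688 to 778 ± 328 and Gfap from 418 ± 120 to 203 ± 85.8 (SD, n = 15 each), and both fell (log2 fold change -1.48 and -1.19). Sox10 went from 7659 ± 2645 to 6066 ± 2054 (log2 fold change -0.33, adjusted p = 0.366 in the unpaired fit). By serial rank, Sox10 was lower in every treated library on Matrigel and laminin. On poly-L-ornithine it was lower except in the pairs of 4979 and 5733 and of 4923 and 4981, naive value first. Set relative to Sox10 in each library, Mbp and Cryab were still called and the other 5 were not, with log2 changes of -0.20 for Pmp22, -0.68 for Gldn, -0.55 for Lgi4, -0.45 for L1cam and -0.54 for Ncam1, while the median of all genes was 0.30 on that scale. Among markers of other cells, 5 of 8 tested smooth muscle genes also fell after IL-1β, with a summed level of 7646 to 39620 in naive and 2268 to 14916 in treated cultures. Of 12 enteric neuron markers none was called. The part of these cells in the changes was not tested.

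**Figure D2:**
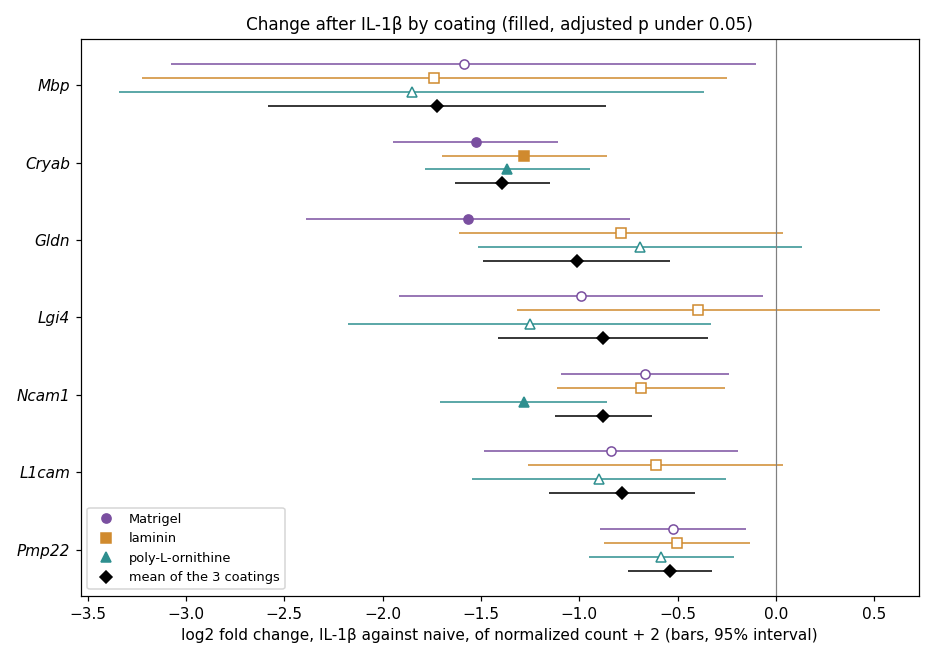
Log2 fold change of normalized count + 2 after IL-1β for the 7 genes that were called over the coatings, for each coating (5 against 5 libraries) and for their mean (15 against 15). Bars are 95% intervals, and filled symbols have an adjusted p under 0.05 over all genes. All 28 estimates are below 0, and Cryab is the gene that is filled on every coating.

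Within single coatings fewer of the 9 genes passed. On Matrigel, Cryab and Gldn were called (of all genes, 1.96% were called and 0.822% called lower), with log2 fold changes of -1.53 (SE 0.21, adjusted p = 6.37e-05) and -1.56 (SE 0.42, adjusted p = 0.0305). On laminin only Cryab was called (of all genes 1.88%, and 0.735% lower), at -1.28 (SE 0.21, adjusted p = 0.000593). On poly-L-ornithine, Cryab at -1.37 (SE 0.21, adjusted p = 0.000253) and Ncam1 at -1.28 (SE 0.22, adjusted p = 6.64e-05) were called (of all genes 2.34%, and 1.14% lower). The 3 contrasts share 1 estimate of spread but no library. The Gldn call on Matrigel was lost without any of 6 of the 10 Matrigel libraries, and 5 of the other settings also ended it. With the rank of the library serial numbers as a block, Mbp was called on every coating, with adjusted p of 0.00404 on Matrigel, 0.00136 on laminin and 0.000489 on the third coating. Under the same block L1cam was also called on Matrigel (adjusted p = 0.0329) and poly-L-ornithine (0.0169), Ncam1 on Matrigel (0.0181) and laminin (0.0145), and Lgi4 on poly-L-ornithine (0.0213), all 3 lower.

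A gene that was called on 1 coating was not shown to respond differently there. No gene of the 20687 tested was called for a difference of the response between coatings (0%), and 675 had an unadjusted p under 0.05, none of them among the 9. The nearest was Ncam1, whose change was 0.62 log2 units weaker on Matrigel than on poly-L-ornithine (95% interval 0.01 to 1.22) and 0.60 weaker on laminin (-0.01 to 1.20), with an adjusted p of 0.971 over the coatings. For Gldn the response on Matrigel differed from that on poly-L-ornithine by -0.87 (-2.04 to 0.29). For Cryab this difference was -0.16 (-0.75 to 0.43) and for Pmp22 0.06 (-0.47 to 0.58). For Mbp the unpaired fit gave 0.27 (-1.84 to 2.37), which leaves room for a large difference in either direction. With the serial rank block its change was -1.59 on Matrigel and -1.85 on poly-L-ornithine (SE 0.36 each). An interval of the difference under that block is not given.

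Coatings were also compared without a change in treatment. In naive cultures no gene was called between the matrix coatings (Matrigel and laminin) and poly-L-ornithine (0% of genes in limma, although 1046 had an unadjusted p below 0.05), and none of the 9 was called under any of 13 other settings. Pmp22 stood at 2778 ± 618 on poly-L-ornithine, below 4023 ± 924 on Matrigel and 4119 ± 728 on laminin (SD, n = 5 each), and 6 of the 10 Matrigel and laminin libraries lay above all poly-L-ornithine libraries. Its log2 difference was 0.55 (SE 0.16, unadjusted p = 0.00178, adjusted p = 0.554). Ncam1 stood at 1684 ± 361, 1177 ± 328 and 1233 ± 365 in the same order of coatings, with a log2 difference of -0.51 (SE 0.19, unadjusted p = 0.00836, adjusted p = 0.780). Cryab, with means of 9072, 9316 and 9058, differed by 0.05 (95% interval -0.31 to 0.42) and L1cam by 0.02 (-0.54 to 0.58).

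After IL-1β, 0.305% of all genes were called between the matrix coatings and poly-L-ornithine, and none of the 9 was (limma, with 1564 genes below an unadjusted p of 0.05, Pmp22 and Gldn among them). Pmp22 again stood lower on poly-L-ornithine, at 1868 ± 506 against 2793 ± 629 on Matrigel and 2941 ± 796 on laminin (SD, n = 5 each), a log2 difference of 0.62 (SE 0.16, adjusted p = 0.0932). It was called without laminin replicate 3 (adjusted p = 0.0426), without poly-L-ornithine replicate 4 (adjusted p = 0.0160) and with the replicate number as a block (adjusted p = 0.0426). Gldn stood the other way, at 212 ± 102 on poly-L-ornithine against 92.7 ± 67.9 on Matrigel and 177 ± 86.4 on laminin, with a log2 difference of -0.79 (SE 0.36, adjusted p = 0.589). Lgi4, at 377 ± 193, 539 ± 182 and 596 ± 242 in that order, differed by 0.66 (95% interval -0.14 to 1.47).

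**Figure D3:**
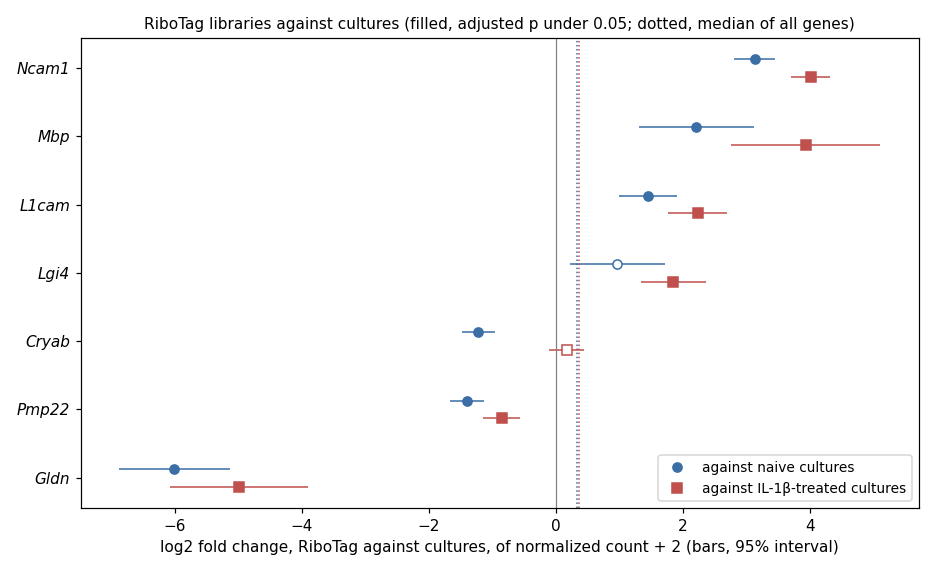
Log2 fold change of normalized count + 2 of the 5 RiboTag libraries against the mean of the 3 naive coatings (blue circles) and of the 3 IL-1β-treated coatings (red squares). Bars are 95% intervals, filled symbols have an adjusted p under 0.05, and dotted lines are the medians of all genes, 0.32 and 0.36. Ncam1, Mbp and L1cam lie above the dotted lines and Pmp22 and Gldn below 0 in both comparisons.

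The RiboTag libraries held more Ncam1, Mbp and L1cam than naive cultures and less Gldn, Pmp22 and Cryab. Of the 9 genes, 6 were called, 3 higher and 3 lower, and the same 6 against each coating alone. Of all 20320 genes tested, 45.5% were called, 31.3% higher and 14.1% lower (37.8% against Matrigel, 37.9% against laminin and 36.6% against poly-L-ornithine alone), and the median log2 fold change of all genes was 0.32, so that a call alone says little here. Place (tissue or dish), kind of RNA (ribosome-bound or total), genotype and extraction kit differ together between RiboTag and cultures and cannot be told apart. Markers of other cells moved as well. The 9 smooth muscle markers, all called higher, summed to 242803 to 494576 in RiboTag against 7646 to 39620 in naive cultures, 12 enteric neuron markers to 14645 to 20867 against 5223 to 11390, and 8 fibroblast markers to 6834 to 10089 against 24570 to 89853. The part of these cells in the values below was not tested.

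Of the myelin genes, Mbp read 2201, 2269, 1696, 2099 and 2903 in RiboTag. All 5 lay above all 15 naive culture libraries, which reached 1656, and the log2 difference was 2.20 (SE 0.46, adjusted p = 0.000804). Pmp22 read 1535, 1724, 1053, 1085 and 1409, all below the lowest naive culture at 2072. Its log2 difference was -1.40 (SE 0.14, adjusted p = 1.53e-10). Mag read 0, 0, 13.1, 13.5 and 0, within the range of the naive cultures.

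Of the adhesion genes, Ncam1 read 10559, 12304, 9332, 11427 and 14136 in RiboTag. The highest naive culture had 2320, and Ncam1 was 8.47-fold higher by the means (log2 difference 3.13, SE 0.16, adjusted p = 6.74e-16). L1cam read 1487, 2017, 1205, 1521 and 1774, also above all naive cultures, with a log2 difference of 1.45 (SE 0.23, adjusted p = 5.99e-06). Gldn went the other way and was listed at 0 in 3 of the 5 RiboTag libraries, with 12.5 and 9.51 in the others. All 15 naive cultures had at least 127, and the fitted log2 difference of -6.01 (SE 0.44, adjusted p = 1.30e-13) depends on the pseudocount, since most RiboTag values are 0. The mean was 66.8-fold lower, at 4.40 against 294.

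Lgi4 read 1061, 2244, 1690, 1716 and 1779, and 4 of these 5 lay above all naive cultures. Its log2 difference of 0.97 (SE 0.38, adjusted p = 0.0501) missed the threshold by little and passed it under 9 of 11 other settings and without any of 7 single libraries. Egr2 read 0, 20.8, 10.7, 0 and 4.56, inside the range of the cultures. Cryab read 3385, 4373, 3695, 4162 and 3602. These values lay below all naive cultures, with a log2 difference of -1.23 (SE 0.13, adjusted p = 2.29e-08).

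Against IL-1β-treated cultures, which share the RiboTag libraries with the comparison above, 47.1% of 20415 genes were called, 32.3% higher and 14.8% lower. Mag did not pass the filter on low values, and 6 of the other 8 genes were called, 4 higher and 2 lower. Without the filter Mag was called higher, at 1.14 (adjusted p = 0.0338), and likewise with all 35 libraries in 1 fit (adjusted p = 0.0467), on values of 0 to 13.5 in RiboTag and 0 to 0.745 in treated cultures. The log2 differences were 4.01 for Ncam1 (SE 0.16), 3.93 for Mbp (SE 0.60), 2.23 for L1cam (SE 0.24), 1.85 for Lgi4 (SE 0.26), -0.86 for Pmp22 (SE 0.15) and -5.00 for Gldn (SE 0.55), with a median of 0.36 over all genes. Cryab did not differ beyond the spread. Its 5 RiboTag values of 3385 to 4373 lay inside the 2554 to 5195 of the treated cultures, with a log2 difference of 0.17 (95% interval -0.10 to 0.44, adjusted p = 0.350).

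The scale on which RiboTag and cultures are set side by side decided some of these calls. The 4 housekeeping genes Gapdh, Rpl32, Actb and Pgk1 were all called lower in RiboTag than in naive cultures, with a median log2 difference of -0.92. Relative to them the median of all genes was 1.52, 95.1% of called genes were higher against 68.9% on the authors' scale, and the differences of Pmp22 at -0.20 and of Cryab at -0.03 were no longer called. Mag was called higher than in naive cultures on that scale, at 1.84 (adjusted p = 0.0107). Against IL-1β-treated cultures on that scale Pmp22 turned to 0.42 and Cryab was called higher at 1.45. Relative to Sox10, which was 1.07 log2 units higher in RiboTag, the median of all genes was -0.74, 23.2% of called genes were higher, L1cam at 0.38 was not called, Lgi4 turned to -0.10, and, against treated cultures, Cryab turned to -1.24 and Egr2 was called lower at -2.14 (adjusted p = 0.0373). After quantile normalization 49.4% of called genes were higher, and Cryab was called higher than in treated cultures, at 0.54. Ncam1 and Mbp stayed higher and Gldn lower in RiboTag under all 11 settings tried.

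The order of groups differed from gene to gene. Ncam1, Mbp, L1cam and Lgi4 had their highest group mean in RiboTag, then naive and then treated cultures. Pmp22 and Gldn had theirs in naive cultures, then treated cultures and then RiboTag. For Cryab, treated cultures and RiboTag were neighbours that did not differ beyond their spread. Lgi4 in naive cultures and in RiboTag were neighbours whose difference missed the threshold only after adjustment. On the authors' scale Egr2 was not called between these groups, and Mag was not called between naive cultures and either of the other groups.

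Within groups the 7 detected genes did not vary as a block. Over the 30 culture libraries, after the mean of each group was taken off, the 21 pairs gave Pearson correlations from -0.36 to 0.71, with 6 pairs above 0.5 and 6 below 0. These are descriptions, and the libraries share cell composition and, by serial number, a rank. Gldn and Cryab varied most alike (r = 0.71), followed by Mbp and L1cam (r = 0.65) and Lgi4 and Ncam1 (r = 0.59). Pmp22 ran against Mbp (r = -0.36). Cryab followed Sox10 (r = 0.76), while L1cam followed S100b (r = 0.79).

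Among 9666 genes with a mean of at least 50, the pair most like each gene by Pearson correlation over the same 30 libraries were Stmn1 and Apoe for Mbp (r = 0.82 and 0.79), Fxyd6 and Il11ra1 for Pmp22 (0.88 and 0.83), Cryab and Ngfr for Gldn (0.71 and 0.70), and Gas7 and Erf for Lgi4 (0.79 and 0.74). For L1cam they were Galnt17 and Mapt (0.81 and 0.80), for Ncam1 Myl9 and Zfp260 (0.76 and 0.74), and for Cryab Ngfr and Uchl1 (0.89 and 0.81). Ngfr, the low-affinity neurotrophin receptor of immature and repair Schwann cells, was named for both Gldn and Cryab.

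**Figure D4:**
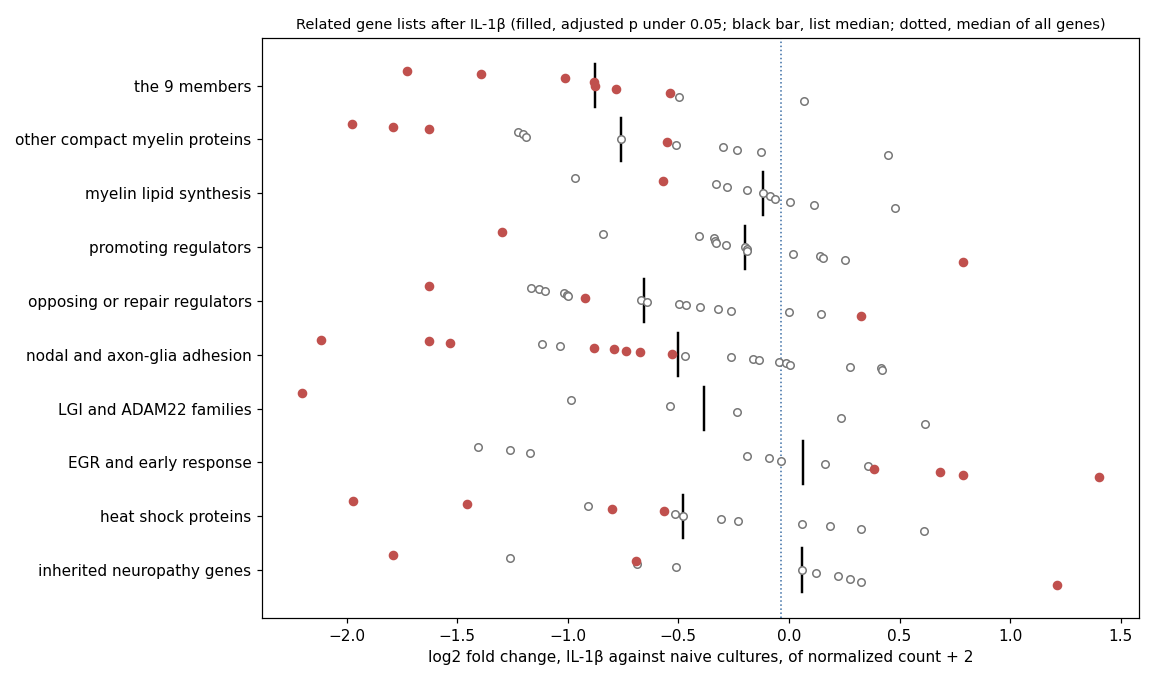
Log2 fold change of normalized count + 2 after IL-1β, mean of the 3 coatings, for the 9 genes and for 9 lists of related genes. Each point is a gene, filled where the adjusted p was under 0.05, black bars are list medians and the dotted line is the median of all genes, -0.04. The medians of the 9 genes (-0.88) and of other compact myelin proteins (-0.76) lie farthest below the dotted line.

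Related genes are counted here for the response to IL-1β, beside the 7.44% of all genes that were called and the 4.02% called lower. Of 13 tested genes for other compact myelin and Schwann membrane proteins, 4 fell and none rose, with a median log2 fold change of -0.76. They were Tspan2 at -1.63 (adjusted p = 0.000593), a tetraspanin of myelin-forming glia, and Cnp at -0.55 (adjusted p = 0.0115), a cytoplasmic myelin enzyme. The others were Mal at -1.97 (adjusted p = 0.0378), a proteolipid of myelin rafts, and Prx at -1.79 (adjusted p = 0.0448), the periaxin of Schwann cells. Prx had low counts, as it belongs to the 8 Schwann cell markers that summed to 43.9 to 231 in naive and 0 to 87.3 in treated cultures. Of 20 genes for nodal, paranodal and axon-glia adhesion, 8 fell and none rose, with a median of -0.50. Dag1, which encodes dystroglycan, a receptor for laminin, fell by 0.79 on the log2 scale (SE 0.10, adjusted p = 5.75e-09), and all 15 treated libraries, with a mean of 1216, lay below all 15 naive ones, with a mean of 2132. Cadm4, the Schwann cell partner of axonal CADM proteins, fell by 1.53 (SE 0.25, adjusted p = 6.87e-05), and Ank3 and Cadm1 by 0.53 and 0.74.

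Of 6 genes of the LGI and ADAM22 families, Adam11 fell by 2.20 (SE 0.32, adjusted p = 5.97e-06) and the others were not called, with a median of -0.39. Of 13 heat shock proteins and chaperones, 4 fell and none rose (median -0.48). These were Hspb1 at -0.80 (adjusted p = 0.000159), the small heat shock protein HSP27, Bag3 at -0.56 (adjusted p = 4.17e-05), a co-chaperone of small heat shock proteins, Hspa1b at -1.45 and Hspb3 at -1.97. Of 11 genes for myelin lipid synthesis only Sqle, a squalene epoxidase of the cholesterol pathway, was called, at -0.57 (adjusted p = 0.0229, median of the list -0.12).

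Regulators were mixed. Of 15 that promote myelination, Nab1, a partner of EGR proteins, rose by 0.79 (adjusted p = 0.000575) and Nrg1, the neuregulin ligand, fell by 1.30 (adjusted p = 0.0337), with a median of -0.20. Of 18 that oppose myelination or mark repair Schwann cells, Gap43 fell by 0.92 (adjusted p = 0.00307), Artn fell by 1.63 (adjusted p = 0.0351) and Stat3 rose by 0.33 (adjusted p = 0.0129), with a median of -0.65. Of 12 genes of the EGR family and early response, 4 rose and none fell, with a median of 0.06. Junb rose by 1.40 (SE 0.15, adjusted p = 9.40e-11) and was above all naive libraries in 13 of 15 treated ones, and the others were Jund at 0.38, Nab1 and Ier2 at 0.68. Of 11 tested inherited neuropathy genes, Litaf, an endosomal protein induced by lipopolysaccharide in macrophages, rose by 1.21 (SE 0.08, adjusted p = 4.45e-18) in 15 of 15 libraries above all naive ones, while Prx and Arhgef10 at -0.69 fell, with a median of 0.06. Some genes, among them Nab1, Nab2, Gjb1 and Prx, belong to more than a single list.

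Against naive cultures the same lists are read beside the 31.3% of all genes called higher in RiboTag, the 14.1% called lower and the median of 0.32. Of 15 other compact myelin genes 10 were called higher and none lower (median 1.64), among them Cmtm5 at 3.29 and Cnp at 1.38. In the LGI and ADAM22 families 4 of 6 were higher (median 1.92), namely Adam23 at 2.03, Adam11 at 1.82, Lgi1 at 4.46 and Adam22 at 2.75. Of 20 nodal and adhesion genes 9 were higher and 2 lower (median 0.82), with Ank3 at 1.44 and Cntn1 at 3.67 higher and Nrcam at -1.58 and Itgb1 at -0.84 lower. Regulators that promote myelination were higher in 10 of 15 and lower in 3 (median 0.94), with Adgrg6 at 2.00 and Erbb3 at 1.31. Of the 18 that oppose it or mark repair Schwann cells, 5 were higher and 9 lower (median -0.53). Among these, Bdnf at -4.95 and Olig1 at -6.77 were lower and Fabp7 at 6.10 and Hey2 at 5.27 higher. Early response genes were called lower for 5 of 11 and higher for 1 (median -0.94), with Junb at -1.12 and Nab2 at -1.11, and 13 heat shock genes split into 5 higher and 5 lower, with Hspb6 at 5.24 and Hspb8 at 1.35 higher. Myelin lipid genes had 4 higher and 1 lower of 11, with Fasn at 1.83 and Srebf1 at 1.69 (median 0.30), and neuropathy genes had 6 higher and 2 lower of 12 (median 0.83).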

How the data were processed

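Per the labels and the study's methods, QuantSeq 3′ reads were trimmed with cutadapt and aligned with STAR against mm10 in Partek Flow, and the authors used DESeq2. The deposited values are normalized counts, a scaled signal in which the counts of each library are divided by a size factor. Between 86.7% and 89.6% of low values were whole multiples of a library's step (tolerance 0.02 of the step), so count tests were not run. Genes with a maximum above 15 were fitted with limma 3.58.1 (trend and robust, R 4.3.3) on log2(normalized count + 2). The 30 cultures formed a fit of 6 groups, without a block. RiboTag with 15 naive or 15 treated cultures formed fits of 4 groups. The fit was tested on simulated data. Tables and figures used Python 3.11.15, pandas 2.3.3 and matplotlib 3.10.9. The genes, lists, comparisons and alternatives were chosen with earlier results of these data known. Named genes are the 9, up to 4 per list with the smallest adjusted p, 3 lineage references (others fixed in the same rule are not reported here), and the 2 genes most like each of the 9. The labels call replicates biological without tying them to mice, so p-values measure the spread between these libraries. No molecular identifiers are named in the sources used here. The labels give 3 days of differentiation, whereas the methods give a longer time for analyses other than morphology. Alternatives were other pseudocounts, filters, scalings, fits and blocks, and leaving out each library.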

Additional observations from a re-analysis of the deposited data

Results flagged for a closer look

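A value stood apart in 6 of the 60 sets of 5 libraries tested, that is, its gap to the nearest library exceeded 0.71 of the range of its set. For normally distributed values chance gives about 1 in 20, a rate that need not hold for counts with values at 0. Mag read 8.66 in naive laminin replicate 5 and 0.745 in IL-1β-treated Matrigel replicate 1, with 0 in the other libraries of each set. In such a set any value above 0 passes the rule. Egr2 read 25.8 in naive Matrigel replicate 1, against a next value of 3.58. The other 3 were on naive poly-L-ornithine. Gldn read 431 in replicate 3 (next 300.1), L1cam 255 in replicate 2 (next 650.2), and Ncam1 2320 in replicate 5 (next 1616).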

How the results depend on the processing

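After IL-1β on Matrigel, 0 of the 9 genes were called relative to Sox10, 1 without trend and robust, with voom on rebuilt reads, with the replicate block or with only the groups compared, and 5 with the serial rank block. On laminin these were 0 relative to Sox10 and 3 with the serial rank block. On poly-L-ornithine they were 0 relative to Sox10, 5 with the serial rank block and 4 with only the groups compared. Averaged over coatings, 2 were called relative to Sox10. Over all genes, 218, 185 and 152 were called on Matrigel, laminin and poly-L-ornithine relative to Sox10, 703, 659 and 765 with the serial rank block, and 242 on Matrigel without trend and robust. Between naive coatings 1 gene was called relative to Sox10 and with voom, 2 without trend and robust or with only the groups compared, and 20 with the serial rank block. Between treated coatings 33 were called relative to housekeeping genes, 8 relative to Sox10, 12 without trend and robust and 218 with the serial rank block. For the difference of the response 3 were called with voom and 2 with the serial rank block. Relative to housekeeping genes 14452 genes were called between RiboTag and naive and 15360 between RiboTag and treated cultures. Lgi4 turned to -0.10 relative to Sox10 (RiboTag against naive). Against treated cultures, Pmp22 turned to 0.42 relative to housekeeping genes and Cryab to -1.24 relative to Sox10. The causes were not tested.

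With the replicate block, 1 of the 9 genes (Pmp22) was called between treated coatings, the Lgi4 call after IL-1β was lost (adjusted p = 0.0673), and Pmp22 was gained on poly-L-ornithine (adjusted p = 0.0477). Title numbers did not pair libraries, since 4 of 30 correlated best with their own number (mean same-number r = -0.018). For the rank of the serial numbers it was 30 of 30 (mean same-rank r = 0.105, other ranks -0.026), a grouping seen in the data that the design does not name. The replicate block could not be had for RiboTag comparisons, whose mice are others.

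Without single libraries, 6 to 7 of the 9 genes were called after IL-1β over the coatings, 1 to 2 on Matrigel, 1 to 2 on laminin, 2 to 3 on poly-L-ornithine, 0 between naive coatings, 0 to 1 between treated ones, 6 to 7 between RiboTag and naive and 6 between RiboTag and treated cultures. Over all genes, 0 to 6 were called between naive and 17 to 92 between treated coatings, the latter without poly-L-ornithine replicate 3 and without laminin replicate 3. A fit of only the groups compared could not differ for the coating average and the difference of responses. Mag and Egr2, at 0 in 26 and 7 of 30 cultures, rest on few reads, and their calls between RiboTag and cultures depended on the filter, the fit or the scale.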
